A study of Homo sapiens with 6 samples.

Results

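PI3, SLPI, WFDC2, LCN2, S100A7, S100A8, S100A9, SAA1 and SAA2 are secreted or released proteins with which epithelia and the acute-phase response meet microbes and tissue damage. These 9 genes, of the 58174 in each file, were picked by symbol and were proposed with the difference between the groups already known, so their levels are a description and no p is given for them. RNA-seq was performed on T24, an established human bladder carcinoma cell line, carrying a scrambled control shRNA (shRNA_NC, 3 samples) or an shRNA against UBC9 (shRNA_UBC9, 3 samples). UBC9 is the conjugating enzyme that attaches SUMO proteins to their targets. Both groups were made by lentiviral delivery and puromycin selection, and the methods give a single hairpin sequence for UBC9. In these samples an effect of that hairpin on other transcripts therefore cannot be told apart from loss of UBC9. The paper also reports RT-qPCR after a chemical SUMOylation inhibitor in another bladder cancer line, where IL6 and other inflammatory genes rose. The genes it names there include none of these 9. The labels do not say that replicates came from separate cultures, so p-values measure the spread between these samples, which may be technical.

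PI3 (elafin) and SLPI are small inhibitors of neutrophil elastase built on the whey acidic protein (WAP) fold, and WFDC2 (HE4) carries the same fold. LCN2 is a lipocalin that withholds iron from bacteria by binding their siderophores, S100A8 and S100A9 pair as calprotectin, which sequesters metal ions, and SAA1 and SAA2 are the acute-phase serum amyloid A proteins. In epithelia and liver such genes are known to respond to IL1, TNF and IL6 through NF-κB, IκBζ, C/EBPβ and STAT3, while neutrophils hold large stores of LCN2, SLPI, S100A8 and S100A9.

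Levels are given in RPKM (reads scaled to gene length and to all mapped reads). Depth read from the steps of low values was 28200000 to 36100000 reads per library, and the ranges of the groups overlapped. The steps also gave, for each member above 0, the smallest whole read counts with the ratios of its values, which are reported below as recovered reads. Among 13 epithelial and urothelial markers 7 were tested and 2 were called (calls are defined in the next paragraph), both lower in shRNA_UBC9. Of all tested genes, 2.7% were called lower. KRT7 fell from 627, 510 and 530 RPKM to 216, 273 and 286 RPKM (log2 difference -1.11, adjusted p = 0.000578, limma), and PPARG, a urothelial regulator, fell by 2.15 on the log2 scale (adjusted p = 0.00169, limma). CDH1, the epithelial cadherin, was at 0 in 5 libraries and at 0.00449 RPKM in the other one. KRT5 was at 0 in all 6, so CDH1 and KRT5 were absent or nearly so. KRT8, KRT18, KRT19 and GATA3 were expressed in both groups, with KRT18 at a mean of 259 RPKM in shRNA_NC and 137 RPKM in shRNA_UBC9. Their log2 differences were -0.81, -0.93, -0.99 and -0.79 in this order, with adjusted p of 0.0042, 0.000959, 0.00698 and 0.016 (limma). None of them was called, since a call also needed an absolute log2 difference above 1. EPCAM, an epithelial adhesion molecule, was at 0.412, 0.986 and 0.575 RPKM in shRNA_NC and 2.51, 1.27 and 0.732 RPKM in shRNA_UBC9 and was not called (log2 difference 1.0, adjusted p = 0.0984, limma). None of the 5 mesenchymal markers was called, and VIM (286 to 496 RPKM over all libraries) and FN1 (292 to 838 RPKM) were abundant in both groups.

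Of the 9 genes, 5 passed the filter on low values (at least 0.5 RPKM in at least 3 of the 6 libraries), 3 of them (PI3, SLPI and SAA1) were called higher in shRNA_UBC9 and 0 were called lower. A call was an absolute log2 difference above 1 with an adjusted p below 0.05. Across all 12428 tested genes 7.89% were called, 5.2% higher and 2.7% lower, with a median log2 difference of 0.005. Because the members were chosen on this contrast, nothing is read from their count or from a member's call. PI3 and SLPI passed only through shRNA_UBC9, where they were high. SAA1 reached 0.5 RPKM among the controls only in shRNA_NC replicate 2 (1.85 RPKM). It too passed only with the help of shRNA_UBC9. WFDC2, LCN2, S100A7 and SAA2 did not pass and were not in the fit.

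**Figure D1:**
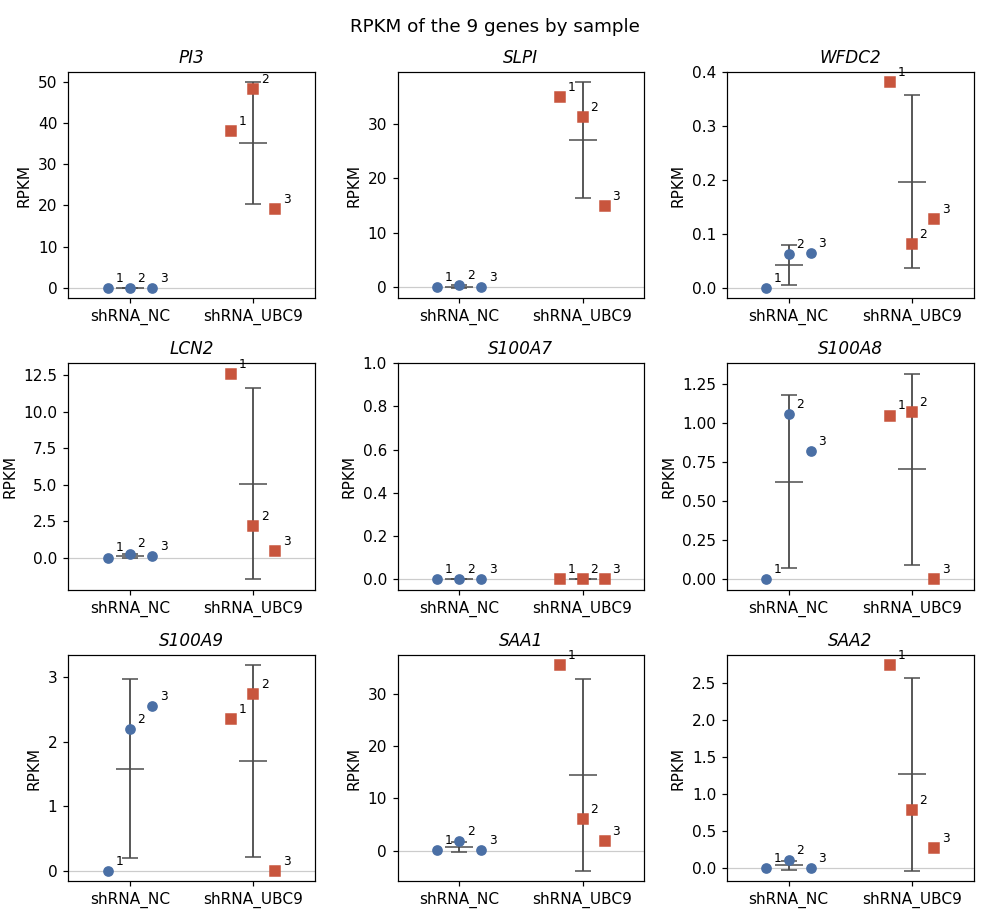
RPKM (vertical axis, linear, its own scale in each panel) of the 9 genes in the 3 shRNA_NC samples (circles) and the 3 shRNA_UBC9 samples (squares), numbered by replicate, with the mean (bar) and SD. PI3 and SLPI lie near 0 in every shRNA_NC sample, S100A8 and S100A9 lie at 0 in 1 sample of each group, and S100A7 lies at 0 in all 6.

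Among the WAP genes, PI3 (chromosome 20, 45174902 to 45176544, GRCh38) was at 0, 0 and 0.0512 RPKM in shRNA_NC replicates 1, 2 and 3 and at 38.0, 48.3 and 19.2 RPKM in shRNA_UBC9 replicates 1, 2 and 3. These values came from 0, 0 and 1 recovered reads against 790, 981 and 312, so the control level rested on a single read. The groups did not overlap. A library at 0 reads still allows up to 3 reads, or 0.174 RPKM in shRNA_NC replicate 1 and 0.15 RPKM in replicate 2. The pooled reads, scaled to depth, gave a ratio of 2060 (95% interval 369 to 81300, exact, counting error only). On the log2(RPKM + 0.1) scale the difference was 8.16 (SE 0.33), and it was 5.06 with a pseudocount of 1 and 10.81 with one of 0.01.

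SLPI (chromosome 20, 45252239 to 45254564) was at 0.0562, 0.484 and 0 RPKM in shRNA_NC and at 34.9, 31.3 and 15.0 RPKM in shRNA_UBC9. The recovered reads were 1, 10 and 0 against 750, 657 and 253. Every shRNA_UBC9 library was thus far above every control, and among the controls replicate 2 held 10 of the 11 reads. The pooled ratio was 149 (95% interval 83.1 to 299, counting error only), and the log2 difference was 6.93 (SE 0.6), or 7.67 without shRNA_NC replicate 2.

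WFDC2 (chromosome 20, 45469753 to 45481532) stayed close to the detection limit at 0, 0.0627 and 0.0642 RPKM in shRNA_NC and 0.381, 0.0821 and 0.128 RPKM in shRNA_UBC9. It had 0, 3 and 3 recovered reads against 19, 4 and 5, of which 19 of the 28 in shRNA_UBC9 were in replicate 1. Although the groups did not overlap, 2 of the shRNA_UBC9 libraries were within 2 reads of the higher controls. The pooled ratio was 4.61 (95% interval 1.87 to 13.6, counting error only). PI3, SLPI and WFDC2 lie in one cluster of WAP genes. Of 15 other genes with this fold on the list, 7 were at 0 in all libraries and 1 was tested. That gene, ANOS1, which encodes the extracellular protein anosmin, was at 0.725 to 1.04 RPKM in shRNA_NC and 0.764 to 1.23 RPKM in shRNA_UBC9 and had a log2 difference of 0.09 (SE 0.22, adjusted p = 0.76, limma), and the sign of this difference turned under quantile normalization (-0.02).

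LCN2 (chromosome 9, 128149453 to 128153453) was at 0, 0.271 and 0.0925 RPKM in shRNA_NC and at 12.6, 2.15 and 0.466 RPKM in shRNA_UBC9. The recovered reads were 0, 15 and 5 against 724, 121 and 21. All shRNA_UBC9 libraries were above all controls, but replicate 3 had only 21 reads beside 15 in the highest control, and replicate 1 held most of the signal. The pooled ratio of 42.8 (95% interval 27.5 to 70.4, counting error only) therefore leans on replicate 1. The log2 difference was 3.71 and dropped to 2.55 without shRNA_UBC9 replicate 1. Of 17 other lipocalin genes 2 were tested and 0 were called. APOM, an apolipoprotein of lipoprotein particles, had a log2 difference of -0.04 (SE 0.23, adjusted p = 0.908, limma), with a sign that turned without shRNA_NC replicate 2 or 3. RBP4, the retinol carrier, had a difference of 0.65 (SE 0.42, adjusted p = 0.257, limma).

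RefSeq promoter windows were found for 5 of the 9 genes (WFDC2, LCN2, S100A7, S100A8 and S100A9). The LCN2 window is shown because LCN2 had the most recovered reads of these 5. The 250 bases before its start site (chr9:128149203-128149452, plus strand, GRCh38.p14) read as follows, with matches to a κB-type and a C/EBP-type motif in capitals.
LCN2 promoter: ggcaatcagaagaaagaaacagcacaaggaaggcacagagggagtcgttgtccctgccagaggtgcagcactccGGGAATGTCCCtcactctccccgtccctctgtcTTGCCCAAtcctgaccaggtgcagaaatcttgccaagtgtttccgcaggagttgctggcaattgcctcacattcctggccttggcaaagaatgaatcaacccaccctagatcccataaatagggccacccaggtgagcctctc
The κB-type motif was searched as GGGANNNNCC and the C/EBP-type motif as TTNNGNAA, on both strands, and these letters were chosen after the LCN2 sequence had been read. The κB-type motif matched at positions -176 and -175 from the start site, once on each strand, and the 2 matches overlap. The C/EBP-type match began at -143. Of 34788 RefSeq windows of the same kind, 22.6% held the κB-type letters and 33.2% the C/EBP-type letters, so such matches were common. S100A7, which was not detected, also had 2 κB-type matches, and S100A8, S100A9 and WFDC2 had none. The C/EBP-type letters were found in the windows of WFDC2, S100A9 and 2 of the 3 start sites of S100A8, and not in that of S100A7. A STAT-type motif, TTCNNNGAA, was in 6.57% of windows and in none of the 5 genes. The TATA box letters TATAAA were in 10.8% of all windows. They were found in those of S100A7, S100A9 and 2 of the 3 start sites of S100A8.

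S100A7 (psoriasin; chromosome 1, 153457744 to 153460651) was at 0 in all 6 libraries, as was its close copy S100A7A, and up to 3 reads per library would still be allowed. The calprotectin pair did not follow the groups. S100A8 (chromosome 1, 153390032 to 153422583) was at 0, 1.06 and 0.823 RPKM in shRNA_NC and at 1.05, 1.07 and 0 RPKM in shRNA_UBC9. S100A9 (chromosome 1, 153357854 to 153361023) was at 0, 2.2 and 2.56 RPKM in shRNA_NC and at 2.36, 2.75 and 0 RPKM in shRNA_UBC9. Both were thus absent from shRNA_NC replicate 1 and shRNA_UBC9 replicate 3 and present at like levels in the other 4 libraries of either group. The log2 difference was 0.11 (SE 1.15) for S100A8 and 0.06 (SE 1.54) for S100A9. Leaving out 1 library moved it between -1.01 (without shRNA_NC replicate 1) and 1.29 (without shRNA_UBC9 replicate 3) for S100A8, and between -1.48 and 1.64, without the same libraries, for S100A9. In recovered reads, S100A8 had 0, 37 and 28 against 38, 38 and 0, and S100A9 had 0, 44 and 50 against 49, 56 and 0. The ratio of S100A9 to S100A8 reads in the 4 libraries was 1.19 to 1.79.

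Reads of blood and muscle genes lay in the same 4 libraries. In a list of 13 blood genes, put together after the values were seen, all 13 had reads in each of these 4 libraries and 0 of 13 had any in the other 2. Their sums were 0, 197 and 195 reads in shRNA_NC and 252, 226 and 0 reads in shRNA_UBC9. The list held HBB, the globin of red cells, at 0, 0.637 and 0.877 RPKM against 0.776, 0.794 and 0 RPKM, and TRBC2, a T cell receptor constant region, at 0, 1.1 and 1.17 RPKM against 1.39, 1.35 and 0 RPKM. S100A9 reads stood to HBB reads at 1.43 to 1.7 in the 4 libraries. Of the 14 neutrophil and myeloid markers 3 were tested and 1 was called, the lysosomal protein CD68, which rose by 3.52 on the log2 scale (adjusted p = 0.000376, limma). The list summed to 2.85 to 4.84 RPKM in shRNA_NC and 20.7 to 50.4 RPKM in shRNA_UBC9, which was mostly CD68. The 12 markers other than CD14 and CD68, left out after their values were seen, had 6, 91 and 97 reads in shRNA_NC and 118, 113 and 2 reads in shRNA_UBC9. PTPRC and MPO, which define leukocytes and granulocytes, were at 0 in shRNA_NC replicate 1 and shRNA_UBC9 replicate 3 and at 0.0629 to 0.142 RPKM elsewhere. The part of these transcripts in the S100A8 and S100A9 values was not tested. In bulk RNA, fewer cells of a type and less RNA per cell cannot be told apart.

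The reads of the genes that were high in shRNA_UBC9 are set beside those of the blood genes here. shRNA_UBC9 replicate 3, with 0 reads of the 13 blood genes, had 312 reads of PI3, 253 of SLPI, 40 of SAA1, 21 of LCN2 and 17 of SAA2, and each of these 5 genes had its lowest shRNA_UBC9 RPKM there. shRNA_NC replicate 1, which also had 0 blood reads, had 0 reads of PI3, LCN2 and SAA2, 1 of SLPI and 3 of SAA1. Within the 4 libraries that held blood transcripts, the log2 differences were 8.45 for PI3, 7.1 for SLPI, 4.32 for LCN2, 4.65 for SAA1 and 3.47 for SAA2. Between the 2 libraries that held none, shRNA_NC replicate 1 and shRNA_UBC9 replicate 3, they were 7.59, 6.6, 2.5, 3.08 and 1.89 in the same order, from 1 sample each. The part of the blood transcripts in these values was not tested.

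**Figure D2:**
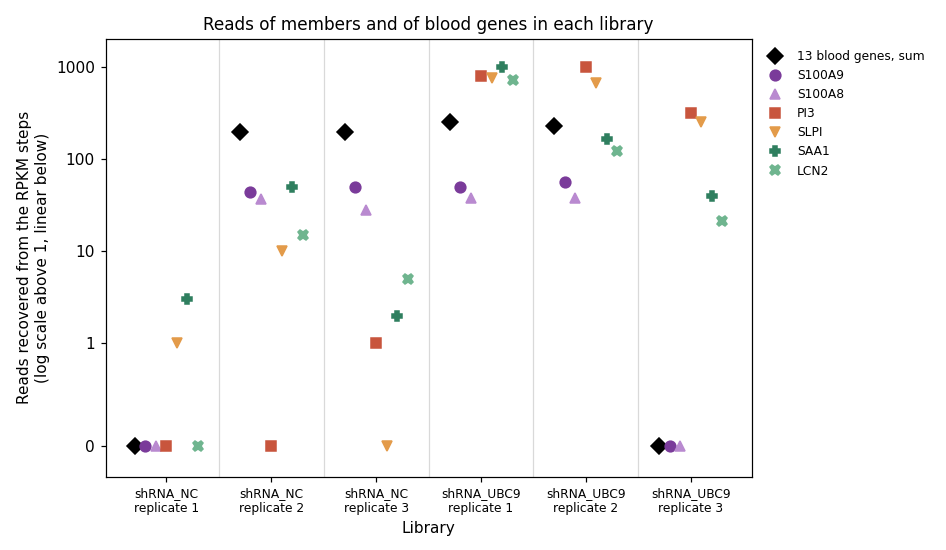
Reads recovered from the RPKM steps (vertical axis, log scale above 1 and linear below) in each of the 6 libraries (horizontal axis), for 6 of the 9 genes and for the sum of 13 blood genes. S100A8, S100A9 and the blood genes are at 0 in shRNA_NC replicate 1 and shRNA_UBC9 replicate 3, whereas PI3, SLPI, SAA1 and LCN2 have reads in all 3 shRNA_UBC9 libraries, fewest in replicate 3.

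SAA1 (chromosome 11, 18266264 to 18269967) was at 0.131, 1.85 and 0.0773 RPKM in shRNA_NC and at 35.5, 6.05 and 1.85 RPKM in shRNA_UBC9. The recovered reads were 3, 49 and 2 against 979, 163 and 40. The lowest shRNA_UBC9 library and the highest control stood at the same rounded RPKM, so the groups barely separated. SAA1 varied 23.9-fold within shRNA_NC and 19.2-fold within shRNA_UBC9. The pooled ratio was 21.6 (95% interval 16.5 to 29.0, counting error only) and the log2 difference was 4.13 (SE 1.14). SAA1 was no longer called without shRNA_NC replicate 1 (difference 3.68) or without shRNA_NC replicate 3 (3.49), and also not when every gene above 0 entered the fit. The difference was 3.01 without shRNA_UBC9 replicate 1 and 5.22 without shRNA_NC replicate 2.

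SAA2 (chromosome 11, 18238236 to 18248668) was lower than SAA1 in every library, at 0, 0.104 and 0 RPKM in shRNA_NC and 2.74, 0.777 and 0.271 RPKM in shRNA_UBC9. It had 0, 8 and 0 recovered reads against 220, 61 and 17, so the groups did not overlap. The pooled ratio was 36.8 (95% interval 18.4 to 86.0, counting error only), and the log2 difference was 2.94, or 2.17 without shRNA_UBC9 replicate 1. SAA1 and SAA2 are near-identical copies, and how the authors' counting split shared reads is not given in the sources used here, so the share of each is uncertain. SAA1 reads stood to SAA2 reads at 4.45, 2.67 and 2.35 in shRNA_UBC9 replicates 1, 2 and 3. The readthrough gene SAA2-SAA4, which overlaps SAA2, was at 0.485 RPKM in shRNA_UBC9 replicate 1 and at 0 in the other 5 libraries. Hepatocytes are the main source of serum amyloid A in the body, and the 8 hepatocyte markers summed to 0.00992 to 0.0756 RPKM in shRNA_NC and to 0.0105 to 0.0369 RPKM in shRNA_UBC9, with 3 of them, APOB, TTR and CYP3A4, at 0 in all libraries.

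The genes that were higher in shRNA_UBC9 differed in their spread within that group. Relative to replicate 3, PI3 was 1.98-fold higher in replicate 1 and 2.52-fold higher in replicate 2, and SLPI was 2.32-fold and 2.08-fold higher. LCN2 was 27.0-fold and 4.61-fold higher, SAA1 19.2-fold and 3.26-fold, and SAA2 10.1-fold and 2.87-fold. In these 3 genes replicate 1 was highest and replicate 3 lowest, with ranges much wider than those of PI3 and SLPI. WFDC2, which rests on few reads, was 2.97-fold higher in replicate 1 and at 0.641 times replicate 3 in replicate 2. SAA1 and LCN2 reads stood at 1.35, 1.35 and 1.9 to each other in the 3 libraries. In the controls, replicate 2 was the highest for SLPI, LCN2, SAA1 and SAA2.

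**Figure D3:**
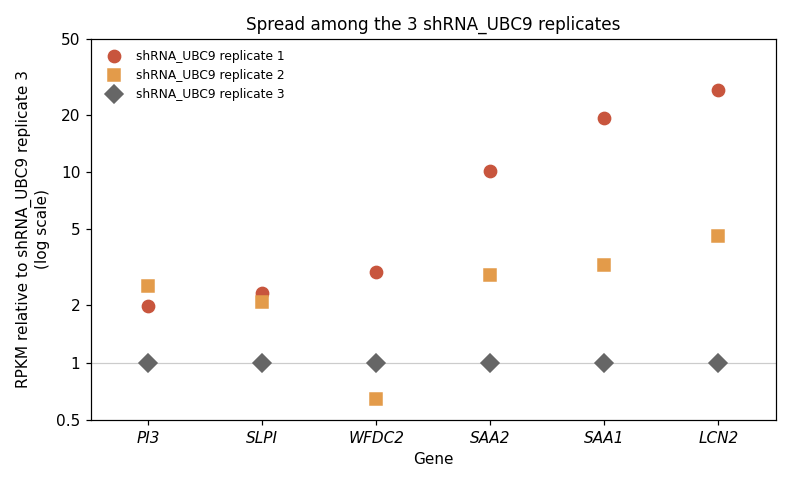
RPKM of 6 genes (horizontal axis) in each shRNA_UBC9 replicate relative to replicate 3 (vertical axis, log scale). PI3 and SLPI spread over 2.52-fold and 2.32-fold, SAA2, SAA1 and LCN2 spread over 10.1-fold, 19.2-fold and 27.0-fold, each with replicate 1 highest, and WFDC2 spread over 4.64-fold with replicate 2 lowest.

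By mean RPKM, which is per length, the order in shRNA_UBC9 was PI3 (35.1 ± 14.8 RPKM, SD, n = 3), SLPI (27.1 ± 10.6), SAA1 (14.5 ± 18.3), LCN2 (5.06 ± 6.55), S100A9 (1.7 ± 1.49), SAA2 (1.26 ± 1.3), S100A8 (0.707 ± 0.612), WFDC2 (0.197 ± 0.161) and S100A7 (0). Each gene overlapped the next in its range of values, except WFDC2 and S100A7. In shRNA_NC the order began with S100A9 (1.59 ± 1.39 RPKM, SD, n = 3), SAA1 (0.686 ± 1.01) and S100A8 (0.628 ± 0.557), and PI3 (0.0171 ± 0.0296) stood last of the 8 detected genes, again with neighbours that overlapped. PI3 thus had the lowest mean of the detected members in the controls and the highest in shRNA_UBC9. Its control mean rested on 1 read, so its place among the other low controls is uncertain.

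Genes around these members in their known pathways were described from 10 lists of 190 genes, drawn up by function with earlier results of these data known. Of these, 189 were in the files and 65 were tested, with 24 called higher, 2 called lower and a median log2 difference of 0.54, beside 0.005 for all tested genes, of which 5.2% were called higher and 2.7% lower. Of the 24 called higher, 8 were at 0.5 RPKM or above in fewer than 3 controls and so passed the filter only with the help of shRNA_UBC9, where they were high. These were CCL20, EHF, FOS and LY96, with no control at that level, C3 and CFB with 1, and TNF and IL22RA1 with 2. Most of the calls were among inducers and regulators. Of 14 tested inducers (cytokines and their receptors) 8 were called higher and 0 lower (median 1.18). IL1B was at 28.1, 32.4 and 22.2 RPKM in shRNA_NC and at 494, 513 and 402 RPKM in shRNA_UBC9, a log2 difference of 4.09 (SE 0.15, adjusted p = 7e-06, limma). IL6 differed by 5.38 (SE 0.48, adjusted p = 0.000182, limma), IL1A by 3.52 (SE 0.21, adjusted p = 2.8e-05, limma) and TNF by 2.89 (SE 0.45, adjusted p = 0.00203, limma). These 4 cytokines were named as the called inducers with the largest differences, so nothing is read from their lack of overlap between groups. Unlike SAA1 and LCN2, IL1B kept within a narrow range among the shRNA_UBC9 replicates. IL17A, IL17F, IL22 and IL36A, other known inducers of such genes, were at 0 in all 6 libraries. Their relatives IL17C, IL36B and IL36G were detected at low levels and were not tested. IL17C was at 0, 0.0209 and 0.0214 RPKM in shRNA_NC and 0.221, 0.144 and 0.0257 RPKM in shRNA_UBC9. IL36G overlapped between the groups, at 0.0214 to 0.23 RPKM against 0.0257 to 0.442 RPKM. Nothing is read from these low values.

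Of 19 tested regulators 10 were called higher and 0 lower (median 1.02). EHF, an epithelial ETS factor, was at 0.0229, 0.145 and 0.0943 RPKM in shRNA_NC and at 5.03, 1.04 and 0.929 RPKM in shRNA_UBC9, a log2 difference of 3.33 (SE 0.59, adjusted p = 0.00361, limma). Like SAA1, SAA2 and LCN2, EHF was highest in shRNA_UBC9 replicate 1. This was not particular to EHF, as NFKBIZ, CCL20 and TLR2 were also highest there, whereas CEBPB and RELB were highest in replicate 2. CEBPB, which encodes C/EBPβ, was at 14.6, 17.4 and 14 RPKM against 69.5, 82.5 and 59.8 RPKM, a difference of 2.19 (SE 0.14, adjusted p = 3.1e-05, limma). NFKBIZ, which encodes the IκBζ cofactor, was at 4.35, 7.59 and 5.08 RPKM against 32.2, 24.5 and 19.7 RPKM, a difference of 2.16 (SE 0.23, adjusted p = 0.000388, limma). RELB, an NF-κB subunit, differed by 1.99 (SE 0.34, adjusted p = 0.00292, limma). STAT3 was not called, at 20.7 to 25.5 RPKM in shRNA_NC and 23.8 to 25.8 RPKM in shRNA_UBC9.

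All 3 tested acute-phase genes, of 21 listed, were called higher (median 3.63), though C3 and CFB passed the filter through shRNA_UBC9 as above, so this count and median are no support. Complement component C3 was at 31.3, 18.8 and 23.7 RPKM in shRNA_UBC9, and its shRNA_NC replicate 2, like those of SLPI, LCN2 and SAA1, was the highest control (log2 difference 5.26, SE 0.95, adjusted p = 0.00386, limma). CFB, complement factor B, was at 0.208, 0.711 and 0.284 RPKM against 5.32, 9.71 and 3.31 RPKM, a difference of 3.63 (SE 0.44, adjusted p = 0.000651, limma). The pentraxin PTX3 was at 67.0, 60.7 and 47.4 RPKM against 110, 263 and 209 RPKM, a difference of 1.65 (SE 0.29, adjusted p = 0.00348, limma). Among those not tested, CRP, FGA, HAMP, ITIH3 and APCS were at 0 in all 6 libraries. SERPINA1, the antitrypsin gene, was at 0.00683, 0.0471 and 0 RPKM against 0.266, 0.0868 and 0.0651 RPKM, and LBP, which binds lipopolysaccharide, was at 0 in the controls and at 0.141, 0.0145 and 0.0181 RPKM in shRNA_UBC9. SERPINA1 and LBP were picked after the values were seen, and their levels were too low for the fit. Other acute-phase genes that were not tested, such as HP, CP and SERPINA3, overlapped between the groups. Nothing is therefore read from SERPINA1 and LBP.

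Among 6 tested genes of antimicrobial peptides and proteins, 1 was called. CCL20, a chemokine with antibacterial activity, was at 0.2, 0.494 and 0.286 RPKM against 147, 91.2 and 46.9 RPKM, a log2 difference of 7.71 (SE 0.4, adjusted p = 1.4e-05, limma). Beta-defensin genes DEFB1, DEFB4A, DEFB4B, DEFB103A and DEFB103B were at 0 in all libraries, and 13 of the 28 genes on this list were. Of 8 tested receptors 2 were called higher (median 0.05). The Toll-like receptor TLR2 differed by 2.26 (SE 0.38, adjusted p = 0.00292, limma) and LY96, the partner of TLR4, by 2.73 (SE 0.51, adjusted p = 0.00454, limma).

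Other S100 genes did not move as a group. Of 9 tested, 0 were called higher and 1 lower (median -0.27), and the sum of the list was 1580 to 2060 RPKM in shRNA_NC and 1890 to 2150 RPKM in shRNA_UBC9. The lower one, S100A4, a protein known from motile cells, was at 2.48, 2.25 and 2.83 RPKM against 1.08, 0.858 and 1.45 RPKM (log2 difference -1.11, SE 0.19, adjusted p = 0.00289, limma). Its difference missed the threshold of 1 without shRNA_UBC9 replicate 2 (-0.95) and with a pseudocount of 1 (-0.73). The more abundant S100A11 was higher, at 288, 287 and 322 RPKM in shRNA_NC against 495, 445 and 399 RPKM in shRNA_UBC9. Its log2 difference of 0.57 (adjusted p = 0.00365, limma) was below the threshold, so it was not called. Of 20 cornified envelope and stress keratin genes in the files 14 were at 0 in all libraries, and of the 2 tested 1 was called lower (median -0.45). This was KRT17, at 0.964, 3.11 and 1.67 RPKM against 0.492, 0.772 and 0.447 RPKM (difference -1.47, SE 0.38, adjusted p = 0.0172, limma), which was not called without shRNA_NC replicate 3 (adjusted p = 0.0504, limma). The 1 tested protease gene, PLAU (urokinase), was not called (difference 0.29, SE 0.24, adjusted p = 0.374, limma). Among 8 housekeeping genes 0 were called (median -0.12), with ACTB at -0.09 and GAPDH at -0.14 on the log2 scale. They were not all level, since PPIA was at -0.35 (adjusted p = 0.0109, limma) and RPLP0 at -0.45 (adjusted p = 0.0146, limma).

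**Figure D4:**
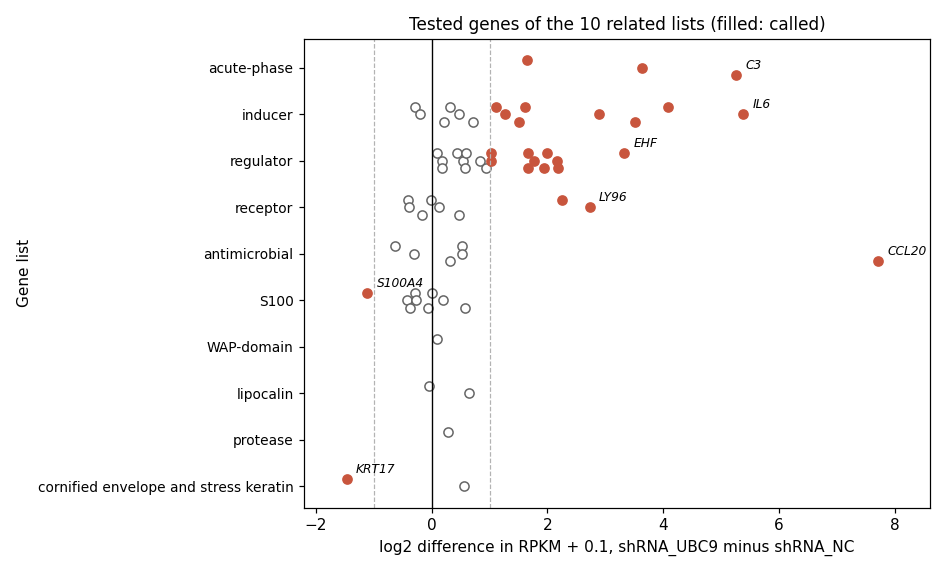
Log2 difference in RPKM + 0.1, shRNA_UBC9 minus shRNA_NC (horizontal axis), of the tested genes of the 10 lists (vertical axis), filled where called; the solid line is the median of all tested genes (0.005), the dashed lines are the threshold of 1 in each direction, and the called gene with the largest absolute difference in a list is named. Filled points lie to the right in the acute-phase, inducer, regulator, receptor and antimicrobial lists, and the 2 to the left are S100A4 and KRT17.

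Genes beside the members on the chromosome were examined next, since position was not used to choose the members. The members themselves were left out of this count, although some, such as SAA1 and SAA2, lie near each other. The 5 annotated genes on each side of each member gave 64 other genes. Of these, 44 were in the files and 14 were tested, with 0 called higher and 1 called lower (median -0.07). SDC4, near SLPI, differed by 0.44 (adjusted p = 0.102, limma), and PTGES2, near LCN2, by -0.01 (adjusted p = 0.967, limma). HPS5, near SAA1 and SAA2, differed by -0.43 (adjusted p = 0.0317, limma) and was below the threshold of 1. The called gene, PIGT, near WFDC2, differed by -1.21 (adjusted p = 0.00104, limma). SDC4, PTGES2 and HPS5 were named after their values were seen. The seminal genes SEMG1 and SEMG2, between PI3 and SLPI, were at 0 in all libraries.

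The genes most like the mean standardised profile of the 5 tested members over the 6 samples were SMG1P3 (Pearson's r = 0.9975), TTC17 (0.9958), FAM135A (0.994), AKAP10 (0.9926) and BTN3A2 (0.9922). They were the highest of the 12428 tested genes with the members left out. With so many genes and 6 samples in 2 groups, such values are a description only. That mean profile joins the S100A8 and S100A9 pattern with those of PI3, SLPI and SAA1, and it was low in shRNA_NC replicate 1. TTC17 was at 5.09, 6.25 and 5.85 RPKM in shRNA_NC and at 7.77, 7.73 and 6.22 RPKM in shRNA_UBC9. On a fold scale its range was far narrower than that of any detected member.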

How the data were processed

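RNA-seq values of 6 T24 samples, 3 shRNA_NC and 3 shRNA_UBC9, were used as labelled. The authors prepared TruSeq libraries from polyA RNA, trimmed adapters, used the CLC Biomedical Genomics Workbench to map reads to GRCh38, and deposited RPKM for 58174 genes in a file per sample. The annotation release and the rule for multi-mapped reads are not given in the sources used here. RPKM corrects for gene length and total mapped reads, not for RNA composition.

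No count model was used. Genes that reached 0.5 RPKM in 3 or more of the 6 samples were compared on log2(RPKM + 0.1) with limma 3.58.1 in R 4.3.3 (eBayes with trend), with Benjamini-Hochberg adjustment over all tested genes; differences on this scale understate the change where RPKM is low. With 3 samples per group, exact permutation p-values could not go below 0.1. Relative depth and recovered reads were read off the single-read steps among low values, and absolute depth from the lengths of 150 single-transcript GENCODE genes (quartiles for shRNA_NC replicate 1 of 29700000 to 29900000 reads). Intervals cover counting error only.

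The members and lists were chosen with earlier results of these data known. The check of the knockdown is not reported here. Named genes were all members, up to 4 called genes per list by size of difference (otherwise up to 2 of the highest mean RPKM), called neighbours, and the 5 genes most like the members' mean profile. Other genes with values are examples chosen after the values were seen, as were the blood and muscle genes, the motif letters and single-member likeness profiles. The lists were WAP-domain, S100, lipocalin, acute-phase, antimicrobial, inducer, regulator, receptor, protease, cornified envelope and keratin, and marker and housekeeping genes. Alternatives were other pseudocounts, filters, scalings and thresholds, no trend, a replicate block and leaving out each replicate. The scripts were tested on simulated data. Python 3.11.15, numpy 2.4.6, pandas 2.3.3, scipy 1.17.1 and matplotlib 3.10.9 were used elsewhere.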

Additional observations from a re-analysis of the deposited data

How the results depend on the processing

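With a pseudocount of 1 in place of 0.1, 552 genes were called (391 higher, 161 lower) in place of 981 (646 higher, 335 lower). All other counts of called genes, members, list genes and neighbours stayed within 1.5 times their main value. Leaving out 1 replicate gave 926 to 1065 called genes, 2 to 3 called members, 23 to 27 called list genes and 1 called neighbour gene. The member lost without shRNA_NC replicate 1 or 3 was SAA1; when every gene above 0 entered the fit, the 3 called members were PI3, SLPI and SAA2. ANOS1 changed sign under quantile normalization (-0.02) and over the replicates left out (-0.09 to 0.22), as did APOM over the replicates left out (-0.26 to 0.12); neither was called. KRT17 was not called when every gene above 0 entered (adjusted p = 0.0542, limma) or with a pseudocount of 1 (difference -0.83). Between pseudocounts of 1 and 0.01 the difference went from 5.06 to 10.81 for PI3, from 0.98 to 5.23 for SAA2 and from 4.51 to 8.53 for SLPI. The 4 libraries with blood transcripts alone, chosen after seeing the data, gave 1011 called genes, 3 called members, 25 called list genes and 1 called neighbour gene. The replicate block gave 974 called genes and 3 called members. Deviations of same-numbered samples correlated at -0.367, 0.073 and -0.17. The labels do not say whether same-numbered samples were handled together, and these correlations cannot decide it. WFDC2, LCN2, SAA2 and the controls of PI3 and SLPI rest on few reads, which limits their ratios.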

Other observations

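A total of 69 genes were at 0 in shRNA_NC replicate 1 and shRNA_UBC9 replicate 3 and above 0.05 RPKM in the other 4 libraries, and 8 of them were above 0.5 RPKM in those 4. The 8 were S100A8, S100A9, the globin gene HBB, the T cell receptor genes TRBC2 and TRBV20-1, the neutrophil defensin gene DEFA3, the skeletal muscle actin gene ACTA1 and RP11-161H23.5. These limits were chosen after the values were seen. The 17 blood and muscle genes looked up afterwards had 1, 317 and 307 reads in shRNA_NC and 385, 345 and 1 reads in shRNA_UBC9. The gene with the profile most like that of S100A9 over the 6 samples was CKM, the muscle creatine kinase (Pearson's r = 0.999), at 0, 0.47 and 0.535 RPKM in shRNA_NC and 0.569, 0.599 and 0 RPKM in shRNA_UBC9.

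Single members had other nearest genes, in profiles taken after the values were seen. For PI3 they included MMP1, the interstitial collagenase, at 0.221, 0.234 and 0.3 RPKM in shRNA_NC and 80.6, 67.8 and 39.8 RPKM in shRNA_UBC9 (r = 0.9987), and SENP2, a SUMO protease, at 4.94, 4.98 and 5.06 RPKM against 6.72, 6.73 and 6.45 RPKM (r = 0.9997). For SAA1 they included COL8A1, a collagen gene, at 7.15, 13.9 and 7.48 RPKM against 41.4, 21.3 and 15.8 RPKM (r = 0.9949), which shared the high shRNA_NC replicate 2 and the order of the shRNA_UBC9 replicates with SAA1. These are descriptions over 6 samples that share their group difference.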
